A study of Drosophila melanogaster with 12 samples.

Results

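The regions described here are 360 promoters on the large autosomal arms that were accessible in early Drosophila embryos and carried a binding motif for the GAGA factor (GAF). They were found among 11280 accessible regions, built by merging the overlapping peaks of all 12 ATAC-seq libraries and keeping those touched by a peak in both libraries of at least 1 group. Of these regions, 9400 lay on the autosomal arms, and 3431 of the 9400 had their midpoint within 500 bp of an annotated transcription start site. The 360 members were the promoters with a run of 7 or more bases alternating G and A, beginning and ending in G on either strand, wholly within 100 bp of the midpoint. The remaining 3071 promoters, which had no such run, are called other promoters below, and the 442 autosomal regions with such a run but no start site within 500 bp are called distal GAF regions. A run is a match of letters, and whether GAF occupied it was not measured in these libraries.

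Chromatin accessibility was assayed with a transposase that inserts sequencing adapters into DNA free of nucleosomes. The labels give 6 groups of 2 libraries from whole Drosophila melanogaster embryos. At 0.5 to 1.5 h after egg laying there were wild-type embryos collected as controls of the HIRA mutant, M-Z+ HIRA mutant embryos, wild-type embryos collected as controls of the dPCIF1 mutant, and M-Z+ dPCIF1 mutant embryos. At 2 to 3 h there were wild-type and M-Z+ HIRA mutant embryos. M-Z+ names embryos whose mother supplied no functional product, while a zygotic copy is taken to be present. By the paper, HIRA also has a part in forming the diploid zygote. The ploidy of the embryos was not measured in these libraries, so the 2 mutants may differ in more than the maternal protein. By the study's methods the null alleles were made with CRISPR, embryos were selected by hand and pooled for each library, and many HIRA mutant embryos had arrested or delayed nuclear divisions by the later stage, which makes age and genotype inseparable in that group.

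GAF, the product of Trithorax-like, binds GA-rich DNA and recruits remodellers that clear nucleosomes from promoters. It is a pioneer factor, able to bind DNA in closed chromatin, and it acts in the major wave of zygotic genome activation, when the embryo begins to transcribe its own genes widely. Zelda is the pioneer factor of the earlier wave. HIRA is a histone chaperone that deposits the variant H3.3 independently of DNA replication. The fly protein dPCIF1 is related to PCIF1, which methylates the cap of mRNA in mammals. The comparisons address whether promoters with a GAF motif become accessible without maternal HIRA and whether they become accessible too early without maternal dPCIF1.

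The motifs of 12 members are shown because they span the patterns described below, from promoters open in every library to promoters open in 1 group. Each sequence was read from the dm6 assembly (RefSeq Release 6) and is written 5′ to 3′ on the strand of the named gene. Capitals mark the longest alternating run, which reads as GA where the motif lies on the gene's strand and as CT where it lies on the other. The first group holds 4 homeotic genes, the second the small heat shock gene Hsp22 and 4 segmentation genes, and the third 3 of the longest runs.
Dfd, chr3R:6791713-6791801, plus strand: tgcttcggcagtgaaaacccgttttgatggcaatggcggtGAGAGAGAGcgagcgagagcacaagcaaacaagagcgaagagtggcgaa
Scr, chr3R:6850027-6850115, minus strand: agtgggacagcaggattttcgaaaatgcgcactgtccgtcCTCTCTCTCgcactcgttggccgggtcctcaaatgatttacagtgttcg
Ubx, chr3R:16734526-16734612, minus strand: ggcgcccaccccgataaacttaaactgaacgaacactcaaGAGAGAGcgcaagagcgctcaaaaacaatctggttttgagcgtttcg
abd-A, chr3R:16830194-16830282, minus strand: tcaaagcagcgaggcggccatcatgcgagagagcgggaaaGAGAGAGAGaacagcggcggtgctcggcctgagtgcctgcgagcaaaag
Hsp22, chr3L:9373907-9373935, plus strand: gaagaaaattcGAGAGAGtgccggtattt
sob, chr2L:3580786-3580872, minus strand: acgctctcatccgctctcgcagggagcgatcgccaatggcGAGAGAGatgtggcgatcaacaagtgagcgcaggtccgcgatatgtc
hb, chr3R:8697963-8698049, minus strand: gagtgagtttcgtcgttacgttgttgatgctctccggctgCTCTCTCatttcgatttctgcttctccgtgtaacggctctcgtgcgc
kni, chr3L:20695640-20695734, minus strand: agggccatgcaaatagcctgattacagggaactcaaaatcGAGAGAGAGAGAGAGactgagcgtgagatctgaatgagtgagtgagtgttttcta
tll, chr3R:30852001-30852087, plus strand: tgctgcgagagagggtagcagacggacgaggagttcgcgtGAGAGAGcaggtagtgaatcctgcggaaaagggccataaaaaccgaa
croc, chr3L:21476686-21476796, minus strand: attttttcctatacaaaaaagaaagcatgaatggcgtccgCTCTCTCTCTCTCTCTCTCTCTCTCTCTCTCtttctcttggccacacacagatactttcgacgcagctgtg
lncRNA:CR45805, chr3L:131387-131495, minus strand: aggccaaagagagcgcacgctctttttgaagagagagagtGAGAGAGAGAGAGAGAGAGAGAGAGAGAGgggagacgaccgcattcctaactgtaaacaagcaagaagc
Cad86C, chr3R:10826898-10827006, plus strand: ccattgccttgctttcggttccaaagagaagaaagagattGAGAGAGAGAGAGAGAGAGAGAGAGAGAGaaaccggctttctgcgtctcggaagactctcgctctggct

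These 12 windows differed in how much of the surrounding DNA was GA-rich. At Ubx, which specifies the third thoracic segment, a run of 7 bases stood 143 bases upstream of the start site with no second run in the window. At abd-A, a homeotic gene of the abdomen, a second run of 7 bases preceded the run of 9. At tll, which specifies the embryo's termini, the run of 7 was followed directly by the Zelda motif CAGGTAG, and 3 runs lay within 100 bp of the midpoint. At croc, which encodes a forkhead factor of the head, the run spanned 31 bases, the longest of all members. Runs of 29 bases were found at Cad86C, which encodes a cadherin, and at the long noncoding RNA gene lncRNA:CR45805.

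Across the 360 members the longest run had 7 bases in 218, 9 in 56, 11 in 36, 13 in 21 and 15 in 17, and 12 members had longer ones. One run lay in the window of 273 members, 2 runs in 70 and 3 or more in 17. The run read GA on the gene's strand in 194 members and TC in 166. Its centre was upstream of the start site in 246 (68.3%) and within 200 bases upstream in 165 (45.8%), with a median of -92 bases. The members lay on 2L (66), 2R (89), 3L (89) and 3R (116) and were nearest to 347 genes, 12 of which had several members, among them pnt, ttk, pum, lola and Diap1. Their nearest gene was protein-coding for 314 and a noncoding RNA for 42, and the midpoint lay in an intron of some gene in 124, between genes in 120 and in a 5′ untranslated region in 78.

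**Figure D1:**
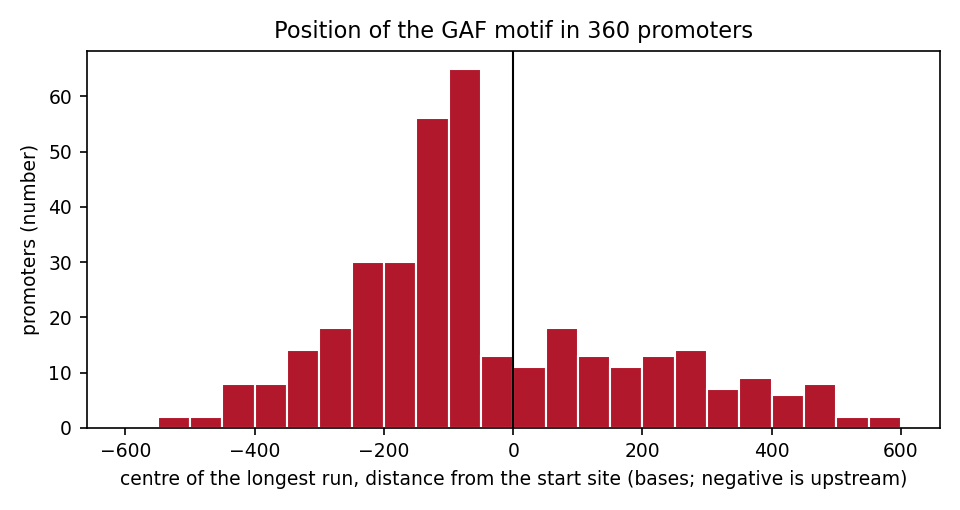
Distance of the centre of the longest run from the start site (x axis, bases, negative upstream) against the number of promoters (y axis) in 360 members. The runs gathered upstream of the start site, where 246 of the 360 lay, with the median at -92 bases.

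The counts of other sequence features, which were not tested, were lower in members for start sites on both strands and for the DREF motif. Start sites on both strands within 500 bp of the midpoint were found in 26 members (7.22%) and in 638 other promoters (20.8%). The motif TATCGAT of DREF, a factor of housekeeping promoters, was present within 100 bp of the midpoint on either strand in 8 members (2.22%, 95% Wilson interval 1.13 to 4.32) and in 188 other promoters (6.12%, 5.33 to 7.03). GGTCACACT, the motif of M1BP, a factor of constitutively active promoters, was present in 3 members (0.833%) and 72 other promoters (2.34%). The TATAAA box was present in 34 members (9.44%) and 422 other promoters (13.7%), and for it and GGTCACACT the intervals of the 2 sets overlapped. The Zelda motif CAGGTAG was about as frequent in both, in 12 members (3.33%) and 131 other promoters (4.27%). In windows of the same length centred on all 19491 autosomal start site positions, a GAGAGAG was found in 833 (4.27%), TATCGAT in 10.0%, GGTCACACT in 3.68%, TATAAA in 27.0% and CAGGTAG in 1.05%. Each motif was counted whether or not it overlapped another, and a match describes letters only.

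The libraries listed between 1505 peaks (HIRA mutant, 0.5 to 1.5 h) and 11432 peaks (HIRA control, 2 to 3 h). The lists hold positions without read counts, so the depth is unknown and a region counts as having a peak or not. Over all 11280 regions the share with a peak was, at the early stage, 36.5% and 41.0% in the controls of HIRA, 12% and 18.3% in the HIRA mutants, 53.7% and 55.4% in the controls of dPCIF1 and 70.3% and 74.9% in the dPCIF1 mutants. At the late stage it was 76.4% and 72.0% in the controls and 67.4% and 53.1% in the HIRA mutants. The 2 wild-type sets of the early stage thus stood apart. Late HIRA mutant replicate 2 listed 7122 peaks against 10595 in replicate 1. No 2 libraries held identical lists. Numbers of peaks moved with the groups in the contrasts below, although in the late HIRA contrast they overlapped, with 9998 peaks in control replicate 2. Their part in the differences was examined only by cutting all lists to the same number of widest peaks.

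Of the 360 members, 50 had a peak in all 12 libraries, among them tll, the pair-rule-related gene sob, ptc (the Hedgehog receptor), pnr (a GATA factor of the dorsal ectoderm), the Polycomb group gene Psc and bnl (a fibroblast growth factor). A further 49 had peaks in every library except both early HIRA mutants, and 49 in every library except 1 of those mutants. Members were open in 10 to 12 libraries in 159 cases (44.2%, 39.1 to 49.3), against 782 other promoters (25.5%, 24.0 to 27.0). At the other end, 65 members (18.1%) had a peak in only 2 to 4 libraries, against 943 other promoters (30.7%). Both libraries of the dPCIF1 mutant held 328 members (91.1%), and 43 members had peaks in both libraries of that group alone. These 43 entered the set through that group and so had to differ there. For 15 members no other library held any peak.

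**Figure D2:**
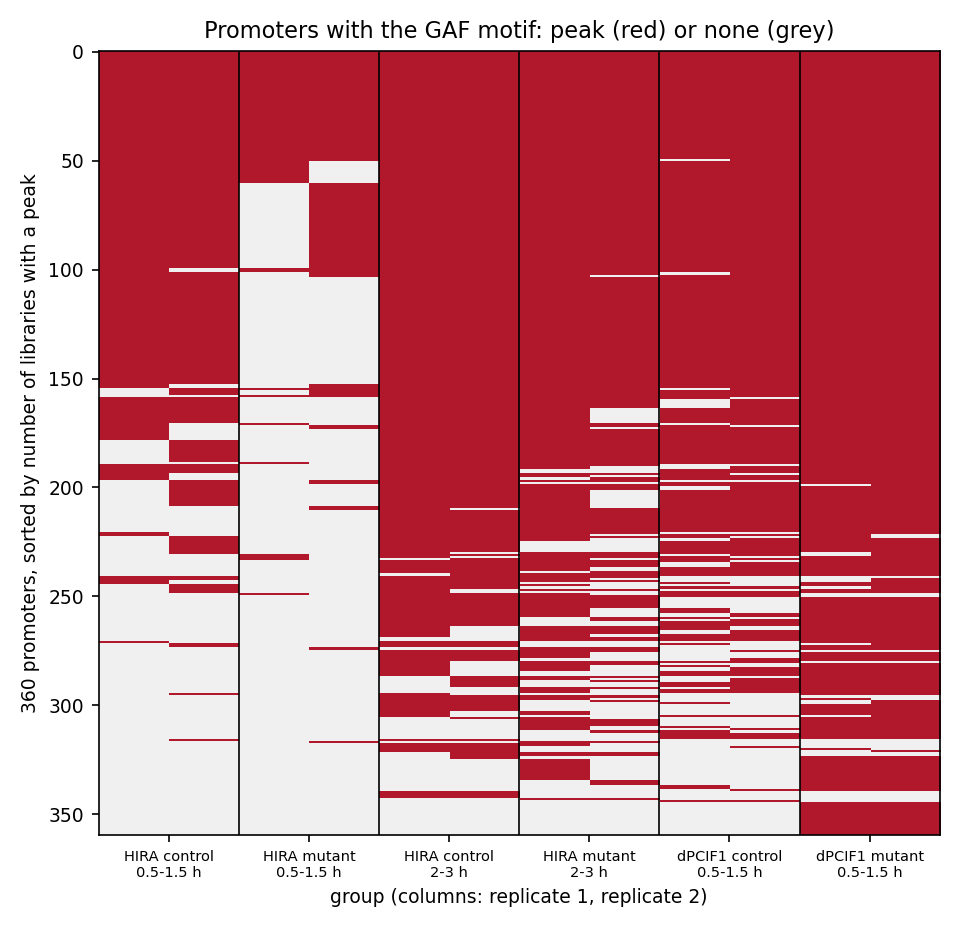
Presence of a peak (red) or none (grey) at each of the 360 members (rows, sorted by the number of libraries with a peak) in the 12 libraries (columns, 2 per group). The early HIRA mutant columns are the emptiest, with 71 and 108 members, and the dPCIF1 mutant columns the fullest, with 332 and 339.

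At 0.5 to 1.5 h fewer GAF promoters were accessible in HIRA mutant embryos than in their controls. The members with a peak were 52.5% and 58.3% in the controls (mean 55.4 ± 4.12, SD, n = 2) and 19.7% and 30% in the mutants (24.9 ± 7.27, SD, n = 2). Both mutants lay below both controls, by 30.6 percentage points, against a pooled SD of 5.91. With the lists cut to 1505 widest peaks each, the share was 23.9% and 19.2% in the controls and 19.7% and 18.1% in the mutants, which overlapped (difference -2.64 points, exact permutation p = 0.667). Against the dPCIF1 controls, the other wild-type set of that stage, the difference was -48.1 points. Between libraries as listed, the exact two-sided permutation test over libraries gave p = 0.33, which is the smallest p that 2 libraries against 2 allow, so no comparison here can pass 0.05. Other promoters went from 39.7% and 44.8% to 10.1% and 15.8%, and distal GAF regions from 38.5% and 42.1% to 15.2% and 22.6%. The excess of members over other promoters was 12.8 and 13.6 points in the controls and 9.66 and 14.2 points in the mutants, which overlapped (difference -1.27 points, exact permutation p = 1). As a ratio of mean shares, members in the mutants stood at 0.449 of the control level and other promoters at 0.306. On the log2 odds ratio scale the excess was 0.75 and 0.79 in the controls and 1.13 and 1.19 in the mutants, so that the sign of this difference depended on the scale. Over all 833 start sites with the run and all 18658 without it, the excess was 11.5 and 11.6 points in the controls and 3.09 and 6.14 points in the mutants, without overlap (difference -6.94 points, exact permutation p = 0.33). The difference was -7.89 points with promoters chosen by a motif anywhere in the region.

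A promoter was called lost when both control libraries and neither mutant library had a peak there. Of the 169 members open in both early controls, 67 (39.6%, 32.6 to 47.2) were lost in the early HIRA mutants, 51 were open in both and 51 in 1 of them. The share over all regions was 47.6%, and it was 54.6% (51.4 to 57.7) among other promoters and 36.6% among distal GAF regions. The lost share of members moved to 63.9% when early HIRA mutant replicate 2 was left out, where other promoters stood at 72.5%. The lost members with the longest runs were croc, Sox21a (a Sox transcription factor), Bsg (basigin, a membrane glycoprotein), crp (a helix-loop-helix factor), Notum (a secreted inhibitor of Wnt signalling) and the small nucleolar RNA gene snoRNA:Me28S-A1322. All 67 lost members had a peak in both late controls, as did all 169 members open in both early controls. In both late HIRA mutants 56 of the 67 had a peak (83.6%, 72.9 to 90.6), 9 in 1 and 2 in neither. Of the 518 lost other promoters, 96.7% were open in both late controls and 71.6% (67.6 to 75.3) in both late HIRA mutants. In the dPCIF1 controls, the other wild-type set of that stage, 58 of the 67 (86.6%) were open in both libraries and 3 in neither, against 82.4% of lost other promoters in both.

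The opposite pattern was rare. Of 55 members open in both early HIRA mutants, 1 (1.82%) was absent from both controls, against 1.87% of other promoters and 6.55% over all regions. It was E(spl)m7-HLH, a Notch-induced repressor of neural fate, which had a peak in all libraries except the 2 early HIRA controls. The immediate-early gene kay, encoding the fly Fos protein, was open in both early HIRA mutants and in replicate 1 only of their controls.

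At 2 to 3 h the share of open GAF promoters overlapped between HIRA mutant and control libraries, while that of other promoters did not. The members with a peak were 83.6% and 80.8% in the controls (82.2 ± 1.96, SD, n = 2) and 81.7% and 68.1% in the mutants (74.9 ± 9.62, SD, n = 2). The groups overlapped, and the difference of -7.36 points was close to the pooled SD of 6.95 (exact permutation p = 0.667). It was -0.56 points without late HIRA mutant replicate 2 and -14.2 without replicate 1. Other promoters had a peak in 81.5% and 78.7% in the controls and in 61.5% and 46.9% in the mutants, without overlap (difference -25.9 points, exact permutation p = 0.33). Distal GAF regions had 73.5% and 68.3% in the controls and 75.1% and 65.2% in the mutants, which overlapped.

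The excess of members over other promoters was 2.14 and 2.16 points in the late controls and 20.2 and 21.1 points in the late HIRA mutants. These values include 324 other promoters and 12 members replicated in the late controls alone, which had to have a peak in both. They also include 69 other promoters and 4 members replicated in the late HIRA mutants alone. The excess was not recomputed without such regions. The difference of 18.5 points was large against the pooled SD of 0.489, with both mutants above both controls (exact permutation p = 0.33, the smallest possible). It was between 18.0 and 19.0 when any 1 library was left out, and 16.0 when all 4 lists were cut to their 7122 widest peaks. The log2 odds ratio of members to other promoters was 0.21 and 0.19 in the controls and 1.48 and 1.27 in the mutants. Counted from the genome instead, over all 833 start sites with a GAGAGAG run and all 18658 without one, the shares under a peak were 31.9% and 30.1% with the run and 15.8% and 14.9% without it in the controls. In the mutants they were 26.9% and 21.0% with it and 9.73% and 6.51% without it. The excess in points there was 16.1 and 15.2 in the controls and 17.2 and 14.5 in the mutants, a difference of 0.19 points, so the gap in points held only among promoters listed as open. In proportion, start sites with the run kept 0.772 of the control share and those without it 0.528, and members kept 0.910 against 0.677 of other promoters.

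The effect of the genotype on this excess was -1.27 points at the early stage and 18.5 points at the late stage. An exact permutation of the libraries within each stage, with 36 arrangements, gave p = 0.167 for the difference of 19.8 points, where the smallest p possible was 0.0556. On the log2 odds ratio scale the effects were 0.39 and 1.17 (exact permutation p = 0.33). The delay of nuclear divisions in the later mutants cannot be told apart from the genotype.

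**Figure D3:**
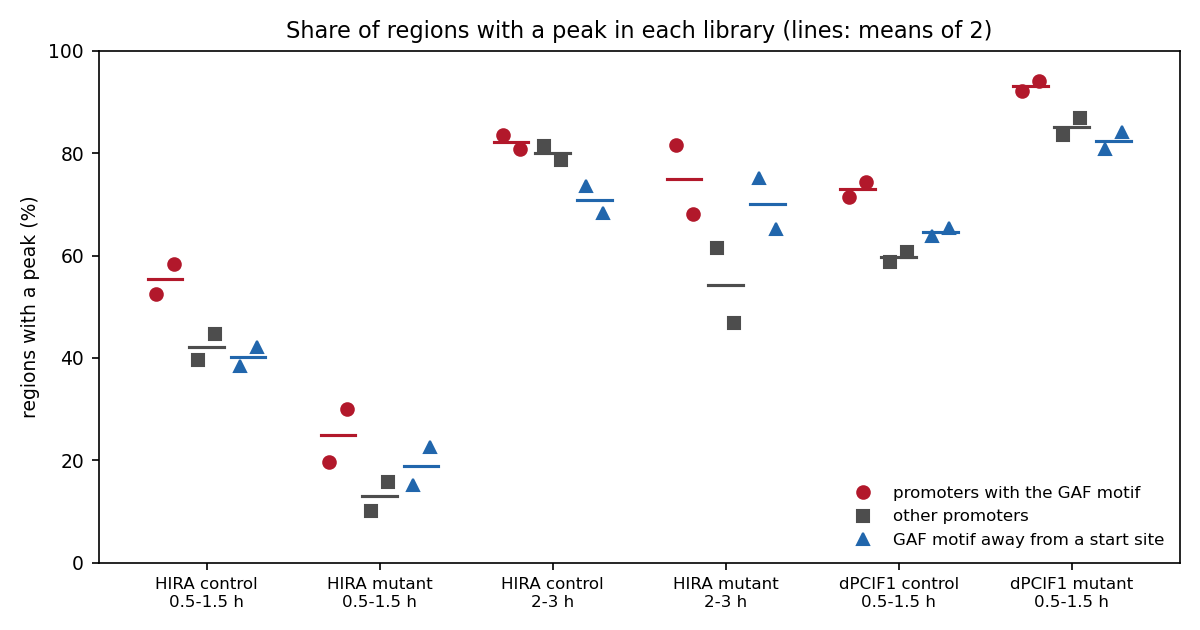
Share of regions with a peak (y axis, %) in each library of the 6 groups (x axis) for 360 members (red circles), 3071 other promoters (grey squares) and 442 distal GAF regions (blue triangles), with lines at the mean of 2 libraries. In the late HIRA mutants the members (81.7% and 68.1%) stood above other promoters (61.5% and 46.9%), while in the late controls both lay between 78.7% and 83.6%.

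Of the 280 members open in both late controls, 27 (9.64%, 6.71 to 13.7) were lost in the late HIRA mutants, against 25.1% (23.3 to 26.9) of other promoters, 9.79% of distal GAF regions and 21.0% of all regions. Without late HIRA mutant replicate 1 the lost share was 22.1% of members and 45.0% of other promoters. Of the 27, 9 were replicated in the late controls alone and so had to differ there, and without the regions kept in this way the share was 6.72% (4.29 to 10.4) of members and 18.1% (16.4 to 19.8) of other promoters. The lost members with the longest runs were Sox21a, mspo (M-spondin, an extracellular matrix protein), CrebA (a factor of secretory genes in the salivary gland and epidermis), fz2 (a Wnt receptor), RhoL (a small GTPase of blood cell migration) and Sam-S (which makes S-adenosylmethionine). Sox21a, with a run of 23 bases, was open in all 8 control and dPCIF1 mutant libraries and in none of the 4 HIRA mutant libraries. Of the 27, 2 (7.41%) were open in both early HIRA controls and 17 (63.0%) in both dPCIF1 mutants, and none was open in both early HIRA mutants. Lost other promoters were alike, with 9.04% in both early HIRA controls, 56.7% in both dPCIF1 mutants and none in both early HIRA mutants.

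Gained members, open in both late HIRA mutants and in neither late control, numbered 9 of 236 (3.81%, 2.02 to 7.09). The share was 4.83% (3.79 to 6.13) of other promoters, 11.3% over all regions and 10.5% of distal GAF regions. The intervals of members and other promoters overlapped. Gained members included Diap1 (an inhibitor of apoptosis, here 1 of 2 promoters), Scr (the homeotic gene of the labial and first thoracic segments), wwk, GstS1 (a glutathione transferase), Ntan1 and GluRIA (a glutamate receptor subunit). The gained Diap1 promoter was also open in all 4 dPCIF1 control and mutant libraries. The promoters at wwk and GluRIA were replicated in the late HIRA mutants alone, so their gain was fixed by how regions were kept. At wwk no other library held a peak. Of the 63 gained other promoters, 41 were replicated in the late HIRA mutants alone. Without regions kept in this way the gained share was 3.02% of members and 1.78% of other promoters, and the intervals overlapped.

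In dPCIF1 mutant embryos at 0.5 to 1.5 h more of the members were accessible than in their controls. The members with a peak were 71.4% and 74.4% in the controls (72.9 ± 2.16, SD, n = 2) and 92.2% and 94.2% in the mutants (93.2 ± 1.37, SD, n = 2), 20.3 points higher against a pooled SD of 1.81, without overlap (exact permutation p = 0.33). Other promoters went from 58.8% and 60.6% to 83.6% and 86.8%, a difference of 25.5 points, and distal GAF regions from 63.8% and 65.4% to 80.8% and 84.2%. The excess of members over other promoters was therefore smaller in points in the mutants (8.63 and 7.39) than in the controls (12.6 and 13.8), a difference of -5.19. On the log2 odds ratio scale it was larger, at 1.22 and 1.30 against 0.81 and 0.92, and over all start sites it was 1.80 points larger, so that no direction can be given to it. The HIRA controls of the same stage, with 52.5% and 58.3%, lay 17.5 points below the dPCIF1 controls, which is nearly as far as the dPCIF1 mutants lay above them. With the lists cut to 7534 widest peaks each, the share of members was 71.4% and 73.6% in the controls and 81.7% and 78.1% in the mutants, a difference of 7.36 points. The 43 members replicated in the dPCIF1 mutants alone are part of these shares. Counted over all 833 start sites with the run, whether or not a peak was listed there, 24.7% and 25.9% lay under a peak in the controls and 33.3% and 35.8% in the mutants.

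Of the 328 members open in both dPCIF1 mutants, 56 (17.1%, 13.4 to 21.5) were in neither control library and were called gained, against 24.3% (22.6 to 26.0) of other promoters and 25.3% of all regions. Of the 56, 32 were replicated in the dPCIF1 mutants alone, so they were kept through the group where they are high and had to differ there, among them Cad86C, stv, yem, aru, Topors, Hsp22 and hb. Without the regions kept in this way the gained share was 24 of 285 members (8.42%, 5.72 to 12.2) and 13.5% (12 to 15) of other promoters, and these intervals overlapped. Gained members with the longest runs were Cad86C, ps (a splicing regulator), stv (the co-chaperone Starvin), yem (yemanuclein, the partner of HIRA in the H3.3 chaperone complex), aru and Topors. In the HIRA libraries, 17 of the 56 were open in both late controls, 8 in 1 and 31 in neither, and 48 were in neither early HIRA control. Among the 598 other promoters gained in the same contrast, 234 (39.1%, 35.3 to 43.1) were open in both late controls, against 30.4% (19.9 to 43.3) of the gained members, and these intervals overlapped. In the late HIRA mutants 15 of the 56 (26.8%, 17.0 to 39.6) were open in both libraries, against 14.2% (11.6 to 17.2) of those other promoters.

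Losses in the dPCIF1 mutants were few. They numbered 4 of 238 members (1.68%), against 3.41% of other promoters and 9.88% of all regions, and 8 of 238 (3.36%) without dPCIF1 mutant replicate 2. They were the promoters of Os-C and of the noncoding RNA genes lncRNA:CR32111, lncRNA:CR46008 and lncRNA:CR46126, named here after their values were seen. The last, with a run of 19 bases, had peaks in the 2 dPCIF1 controls and in no other library. It thus entered the set through the dPCIF1 controls alone and had to differ there. Without such regions the lost share was 1.27% of members (0.43 to 3.67) and 1.81% of other promoters (1.25 to 2.62). These intervals overlapped.

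Many of the members, which were kept for a replicated peak in some group, were already open at the early stage in wild-type embryos. Over all 833 start sites with the run, 17.8% and 18.8% lay under a peak in the early HIRA controls, and 31.9% and 30.1% in the late ones. From the early to the late HIRA controls the share of members with a peak went from 52.5% and 58.3% to 83.6% and 80.8%, a difference of 26.8 points without overlap (exact permutation p = 0.33), and that of other promoters from 39.7% and 44.8% to 81.5% and 78.7%, a difference of 37.8 points. With the lists cut to 4707 widest peaks each, the direction for members turned, with 52.5% and 52.8% in the early controls and 48.3% and 49.4% in the late ones (-3.75 points). The excess of members over other promoters thus went from 12.8 and 13.6 points to 2.14 and 2.16. Over all start sites it was instead 4.09 points larger in the late controls. The excess among listed promoters includes 324 other promoters and 12 members replicated in the late controls alone, and it was not recomputed without them. The early HIRA controls enter this comparison and the early mutant comparison alike. None of the 169 members open in both early controls was absent from both late ones, and all 169 were open in both. Members open late and in neither early control were 54 of 280 (19.3%, 15.1 to 24.3), against 32.3% (30.4 to 34.3) of other promoters and 33.6% of all regions. The count rested on control replicates, and the share was 32.5% of members and 48.2% of other promoters without early HIRA control replicate 2. It was 3.95% of members with the lists cut to equal numbers of widest peaks. Of the 54, 10 were replicated in the late controls alone and so had to differ there. Late-opening members with the longest runs were ps, mspo, roq (an RNA-binding protein), Syp (another RNA-binding protein), bru2 (a Bruno family RNA-binding protein) and Sema1b (a semaphorin). Of the 54, the dPCIF1 mutants had peaks in both libraries for 39 (72.2%, 59.1 to 82.4) at the earlier stage, and their controls for 20 (37.0%, 25.4 to 50.4). Among late-opening other promoters these shares were 60.5% (56.9 to 64.0) and 31.2% (28.0 to 34.7), with overlapping intervals. The late HIRA mutants had peaks in both libraries for 24 of these 54 (44.4%, 32.0 to 57.6), and for 146 of the 727 late-opening other promoters (20.1%, 17.3 to 23.1).

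The shares of promoters lost in the HIRA mutants, gained in the dPCIF1 mutants or opening late in wild type were lower where the run was longer, whereas the share lost in the dPCIF1 mutants was not. Some called promoters were replicated only in the group that had to hold the peak for the call. They were 32 of 56 gained members and 332 of 598 gained other promoters in the dPCIF1 mutants. Among late-opening promoters they were 10 of 54 and 236 of 727, and among late HIRA losses 9 of 27 and 216 of 564. The bands were not recomputed without them. Among promoters with no alternating run of 5 or more bases, 27.6% (25.5 to 29.9) of those open in both late controls were lost in the late HIRA mutants. The share was 18.9% (16.1 to 22.1) with a run of 5, 11.2% (7.27 to 16.8) with 7, 8.11% (3.77 to 16.6) with 9 or 11 and 5.56% (1.54 to 18.1) with 13 or more. In the early HIRA mutants the same bands gave 55.9%, 52.1%, 43.9%, 37.5% and 26.1% (12.5 to 46.5), where the last rests on 6 of 23 promoters. The late-opening share in wild type went from 35.1% without a run to 25.7%, 22.4%, 17.6% and 8.33%, and the share gained in the dPCIF1 mutants from 24.9% to 22.9%, 18.8%, 16.1% and 11.4%. The share lost in the dPCIF1 mutants was 3.70%, 2.74%, 1.43%, 0% (0 of 59, upper limit of the interval 6.11%) and 5.13% (1.42 to 16.9), where the last rests on 2 of 39 promoters. From runs of 5 upward each interval overlapped that of the next band in every comparison, also between 5 and 7. Lengths among the members themselves could thus not be ordered. Only for late HIRA losses and late opening did the intervals without a run and with 5 lie apart. For late opening they were 32.8% to 37.5% and 22.5% to 29.1%. For gains in the dPCIF1 mutants even the first and last intervals overlapped (22.9% to 26.9% and 4.95% to 24.0%). The comparisons of the early HIRA mutants and of the late controls share the early HIRA controls, and those of the late mutants and the late controls share the late ones. Between the first and the last band the median peak width went from 370 to 426 bp and from 391.5 to 344 bp in the 2 early HIRA controls. It went from 463 to 490 bp and from 452 to 447 bp in the late controls, and from 401 to 371 bp and from 408.5 to 378.5 bp in the dPCIF1 controls. The replicates of the first 2 groups thus moved in opposite directions.

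**Figure D4:**
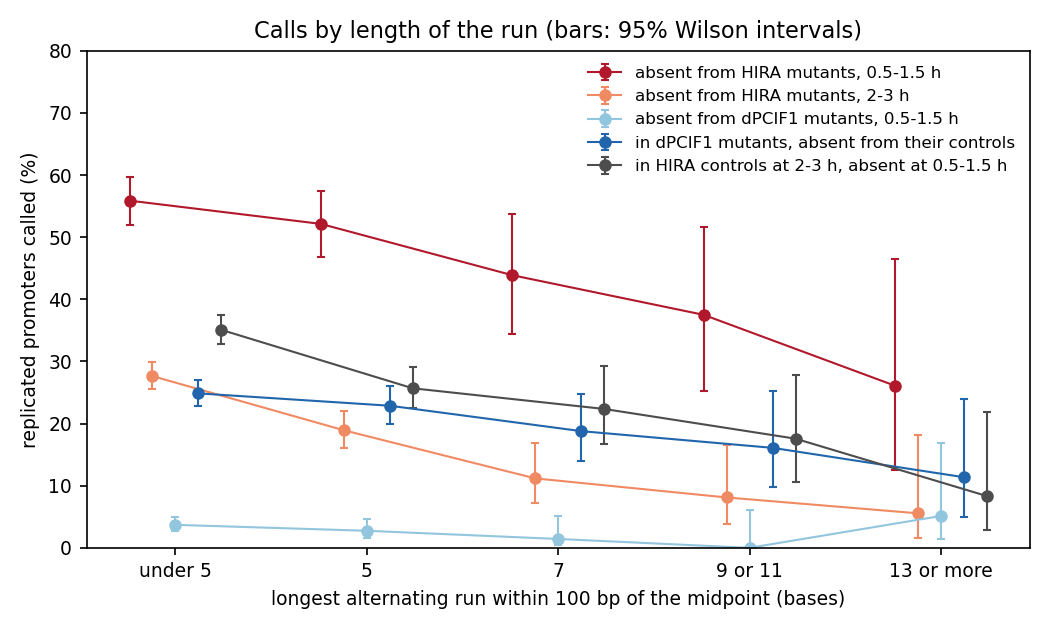
Share of replicated promoters called (y axis, %, with 95% Wilson intervals) by the length of the longest alternating run within 100 bp of the midpoint (x axis, bases) in 5 comparisons. The share lost in the late HIRA mutants (orange) went from 27.6% without a run of 5 to 5.56% with 13 or more bases. Its intervals from a run of 5 upward overlap. The calls include promoters replicated only in the group that had to hold the peak.

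The peaks at members also differed in width. At the 51 members with a peak in all 4 early HIRA libraries the median width was 476 and 525 bp in the controls and 343 and 373 bp in the HIRA mutants, a difference of -142.5 bp without overlap (exact permutation p = 0.33). At 213 members in the late libraries it was 533 and 538 bp in the controls and 488 and 440 bp in the mutants (-71.5 bp, exact permutation p = 0.33), but at the 50 members shared by all 12 libraries the late groups overlapped (exact permutation p = 0.667). At 229 members the dPCIF1 controls had 434 and 459 bp and the mutants 566 and 577 bp (125 bp wider, exact permutation p = 0.33), and at the 50 shared members the difference was 62.75 bp. Other promoters moved the same way, by -225, -143 and 126.5 bp. In the early HIRA and dPCIF1 contrasts the group with wider peaks also listed more peaks in both libraries. In the late contrast HIRA mutant replicate 1 listed 10595 peaks and control replicate 2 listed 9998, with median widths of 488 and 538 bp. The part of list length in these widths was not tested.

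The members included 40 promoters of genes in 13 of 14 lists of developmental, heat shock, chromatin and cell cycle genes, chosen with earlier results of these data known. Both libraries had a peak at 28 of the 40 in the HIRA controls of the early stage, at 10 in the mutants of that stage, at 31 in the late controls, at 33 in the late HIRA mutants, at 32 in the dPCIF1 controls and at all 40 in the dPCIF1 mutants. Of the 40, hb, gsb-n, Hsp22 and yem were replicated in the dPCIF1 mutants alone. They entered the set through that group and so had to be open there. Per library the share was 72.5% and 70% in the early HIRA controls, where the other 320 members had 50.0% and 56.9%. It was 32.5% and 45.0% in the mutants of that stage, where those had 18.1% and 28.1%. In the late HIRA mutants it was 87.5% and 82.5%, against 80.9% and 66.3%. In the late controls it was 82.5% and 82.5%, against 83.8% and 80.6%, which overlapped. In the dPCIF1 controls it was 82.5% in both libraries, where the other members had 70% and 73.4%, and in the dPCIF1 mutants 100% against 91.3% and 93.4%. The shares of the listed genes were not recomputed without promoters kept through the dPCIF1 mutants alone.

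Of 8 homeotic genes, Dfd, Scr, Ubx and abd-A had a member promoter, while lab, pb, Antp and Abd-B had a promoter region without the run. Dfd (FBgn0000439), Ubx (FBgn0003944) and abd-A (FBgn0000014) had a peak in 11 of 12 libraries, and the missing library was an early HIRA mutant each time, replicate 1 at Dfd and Ubx and replicate 2 at abd-A. Scr (FBgn0003339) differed from these, with peaks in both late HIRA mutants and both dPCIF1 mutants and in none of the 8 other libraries.

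Among the gap and terminal genes, which divide the embryo into broad domains, tll had a peak in all 12 libraries and kni in 11, missing replicate 1 of the early HIRA mutants. The promoter of hb had peaks in the 2 dPCIF1 mutants and in late HIRA mutant replicate 1 only. The segment polarity gene gsb-n had this same pattern, although its neighbour gsb was open in all libraries except the 2 early HIRA mutants. The segment polarity genes ptc and mid, a T-box factor, were open in 12 and 11 libraries. Of 10 autosomal pair-rule genes, which set the segments, sob alone was a member, and 9 had a promoter region without the run.

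The 6 dorsoventral members, dpp (a BMP ligand), sna (which specifies mesoderm), pnr, ush (a partner of pnr), Mef2 (a muscle factor) and htl (an FGF receptor), were all open in both early HIRA controls and in both late groups. In the early HIRA mutants pnr was open in both libraries, sna, ush, Mef2 and htl in 1, and dpp in neither. The promoter of dpp was also closed in both dPCIF1 controls and open in both dPCIF1 mutants, so that the 2 wild-type sets of that stage disagreed there. At sna, where a run of 17 bases stood 200 bases upstream, the window also held the Zelda motif CAGGTAG. With 12 members the Zelda subset is small. Of these 12, 6 and 7 had a peak in the early HIRA mutants, against 8 and 8 in their controls.

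Of 18 heat shock genes, 15 had no kept promoter region, and Hsp22 was the 1 member. Its promoter had peaks in the 2 dPCIF1 mutants and in no other library. The study removed reads that did not map uniquely, so near-identical copies such as those of the Hsp70 cluster could not be assessed. Among chromatin regulators, Psc, kis (a chromodomain remodeller) and, of the signalling genes, bnl and 1 of the 2 promoters of pnt (an ETS factor) were open in all 12 libraries, while trx (the Trithorax methyltransferase) and pita (an insulator protein) were closed in both early HIRA mutants alone. Asx, dap (a cyclin-dependent kinase inhibitor) and Egfr (the epidermal growth factor receptor) shared a pattern, with peaks in all 4 dPCIF1 libraries, in 1 late control and in no HIRA mutant. The H3.3 chaperone gene yem was open in the dPCIF1 mutants alone, with its run of 13 bases 560 bases downstream of the start site, in the 5′ untranslated region.

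**Figure D5:**
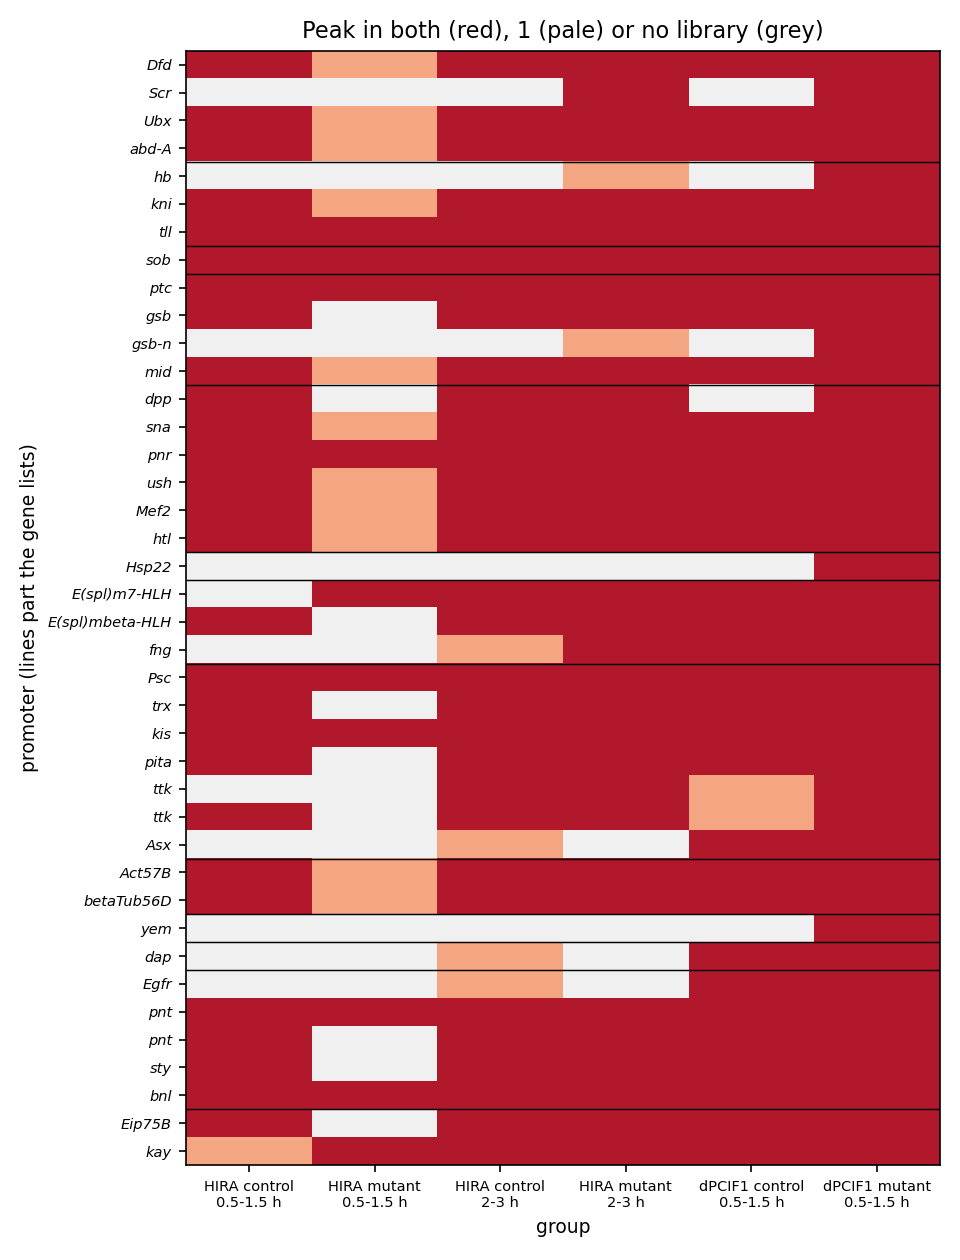
Peaks in both libraries (red), 1 library (pale) or neither (grey) of each group (columns) at 40 member promoters of the listed genes (rows, lines between lists). The dPCIF1 mutant column is red in all 40 rows, and the early HIRA mutant column in 10. The rows of hb, gsb-n, Hsp22 and yem were kept through the dPCIF1 mutants alone and had to be red there.

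The longest runs showed no single pattern. At croc (31 bases) peaks were present in all libraries except the 2 early HIRA mutants, and at lncRNA:CR45805 (29 bases) in all except 1 of them. At Cad86C (29 bases) peaks were present in the 2 dPCIF1 mutants and late HIRA mutant replicate 2 only, and at Octalpha2R (an octopamine receptor, 23 bases) in the 2 dPCIF1 mutants and 1 of their controls. At insb (19 bases) they were present in 9 libraries, among them none of the early HIRA mutants. CG6765 (17 bases) had peaks in 7 libraries and sna (17 bases) in 11.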

How the data were processed

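ATAC-seq peaks were listed for 12 libraries in 6 groups of 2, assigned from the sample labels. Per the labels and the study's methods, the authors trimmed reads (Trimmomatic 0.39), mapped them to dm6 (Bowtie2 2.2.5), marked duplicates (sambamba), removed non-unique and low-quality reads (SAMtools 1.18) and called peaks in each library separately (MACS2 2.2.7.1). How the transposase offset was handled is not given in the sources used here. The deposited files hold other values than measurements of signal, namely 3 columns with the chromosome, start and end of each peak, so depth is unknown and precision rests on the 2 libraries of each group. Whether the replicates came from separate collections beyond the methods' term of biological replicates was not stated. The p-values come from rearranging these libraries between groups and do not measure their spread.

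Peaks were merged where they overlapped. Sequence came from the Release 6 assembly, which is dm6, and start sites from its Ensembl release 115 annotation. A region had a peak in a library when any peak of that library overlapped it. The test between groups was an exact permutation of the libraries (two-sided), and intervals are 95% Wilson intervals, which cover counting error over regions only. Regions are not replicates of a condition. Members, gene lists and tests were chosen with earlier results of these data known. Genes were named when they belonged to a list, had 1 of the 10 longest runs, or were among up to 6 called members with the longest runs in a contrast and direction (no CG or CR number). The alternatives were a peak covering the midpoint, a run of 9, the motif anywhere in the region, 1000 bp to the start site, equal numbers of widest peaks, leaving out each library, a replicate block, the other wild-type set, and, added after seeing the data, the odds ratio, all start sites, and only regions replicated in another group too. The merging, motif and call steps were tested on simulated data. Computations used python 3.11.15, numpy 2.4.6, scipy 1.17.1 and matplotlib 3.10.9.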

Additional observations from a re-analysis of the deposited data

How the results depend on the processing

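Of 176 recomputed values for 16 results, 147 kept their direction and, for shares called, stayed within the main 95% interval. The 147 include values that could not change, such as the differences in means under the replicate block. Cutting lists to equal numbers of widest peaks turned 3 directions: the early HIRA excess of members over other promoters (2.44 points), the late HIRA member share (0.28 points) and the wild-type member share from early to late (-3.75 points). It moved the lost share to 29.6% in the early HIRA mutants and 5.06% in the dPCIF1 mutants, and the gained share to 10.1% in the dPCIF1 mutants and 3.95% in the late controls. The log2 odds ratio turned the early HIRA excess (0.39) and the dPCIF1 excess (0.40). Counting all start sites turned the dPCIF1 excess (1.80 points) and the wild-type stage excess (4.09 points), and with the odds ratio the early HIRA excess (0.65). With the other set of wild-type embryos as control, the lost shares were 52.1% (HIRA, early) and 0.592% (dPCIF1), and the dPCIF1 gained share was 32.9%. With a run of 9 or more the late-opening share was 14.5%, and with only regions replicated in another group too the dPCIF1 gained share was 8.42%. The cause of these changes was not tested.

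Leaving out 1 library, the early HIRA excess ranged from -3.52 to 0.99 points, the lost share from 42.3% to 63.9% (HIRA, early), from 10.3% to 22.1% (HIRA, late) and from 1.56% to 3.36% (dPCIF1), and the gained share from 17.5% to 25.3% (dPCIF1) and from 22.3% to 32.5% (late controls). Same-numbered libraries hardly deviated together. The correlation of their deviations lay between -0.00556 and 0.00503 over all regions and between -0.0785 and 0.0603 over members. These values cannot show whether same-numbered libraries were handled together. Comparing within replicate number (a replicate block) left every difference in means as it was, and its smallest p is 0.5. Its shares, over single libraries, were 60.0% lost (HIRA, early), 17.8% lost (HIRA, late), 24.3% gained (dPCIF1) and 33.2% gained (late controls). Unknown depth limits all shares.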
